A study of Mus musculus with 2 samples.

Results

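The miR-322 to miR-450b cluster is a run of 7 microRNA genes on the minus strand of mouse chromosome X: Mir322, Mir503, Mir351, Mir542, Mir450-2, Mir450-1 and Mir450b, in the order in which RNA polymerase reads them. The genes were taken by name and position from the GENCODE M21 annotation, and all 7 were found among the 1973 genes in each count table. The libraries were made from whole embryonic liver (B6NCrl mice, embryonic day 14.5), an organ that at this stage also forms most of the red blood cells. The series has a single group of 2 libraries, called replicates 1 and 2, with no treatment and no mutant. The labels call each sample the liver of 1 pup and give different collection days, but they also describe the sex as a pool of male and female and name a single donor ID, so the number of embryos behind each library is uncertain. The spread between the libraries may therefore be partly technical, and p-values measure only the difference between these 2 libraries.

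A microRNA gene gives a hairpin RNA that is cut into a duplex of short mature strands, the 5p strand from its first arm and the 3p strand from its second. The strand that is kept guides the silencing complex to messenger RNAs, mainly by pairing through its seed, bases 2 to 8 from the 5′ end. The mouse pair of miR-322 and miR-503 corresponds to miR-424 and miR-503 of humans. It is known for slowing cell division by repressing cyclins and the phosphatase Cdc25a, and for its part in muscle differentiation. Mir322 shares its whole seed with the miR-15/16 family and Mir503 most of it, whereas Mir351 carries the seed of the miR-125 family.

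All 7 genes had mature sequences in the RefSeq table of build GRCm38.p6, and 6 had a hairpin there. The strands below are shown because their seeds set which other microRNA genes the members are compared with. Each is written 5′ to 3′ with the seed in capitals. The first set compares the 5p strands of Mir322 and Mir503 with miR-16-5p of the miR-15/16 family.
miR-322-5p: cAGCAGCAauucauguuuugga
miR-503-5p: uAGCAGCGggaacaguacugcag
miR-16-5p: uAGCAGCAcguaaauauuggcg
The 7 seed bases of miR-322-5p were the same as those of miR-16-5p. Counting from the 5′ end, miR-503-5p differed from miR-322-5p within the seed by A8G alone, so these strands share bases 2 to 7 but not the whole seed. No other gene in the table had the seed of miR-503-5p.

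The next set compares miR-351-5p with miR-125b-5p.
miR-351-5p: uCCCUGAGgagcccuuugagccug
miR-125b-5p: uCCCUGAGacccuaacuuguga
These strands had the same seed, and beyond it they matched at few positions, with 10 of 22 bases the same in all. The 3p strand of Mir542, known for repressing the cell survival gene Birc5, had a seed found in no other gene of the table.
miR-542-3p: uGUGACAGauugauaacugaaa

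The miR-450 genes are shown because identical sequence limits what could be counted there. Mir450-1 and Mir450-2 make the same 5p strand, miR-450a-5p, while their 3p strands differ.
miR-450a-5p: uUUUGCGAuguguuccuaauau
miR-450b-5p: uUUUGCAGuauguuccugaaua
miR-450a-1-3p: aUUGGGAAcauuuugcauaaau
miR-450a-2-3p: aUUGGGGAugcuuugcauucau
miR-450b-3p: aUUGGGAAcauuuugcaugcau
The 3p strands of Mir450-1 and Mir450b shared a seed and differed by A19G and A20C only. In the hairpins of Mir450-2 and Mir450-1 the capitals mark both mature strands.
Mir450-2: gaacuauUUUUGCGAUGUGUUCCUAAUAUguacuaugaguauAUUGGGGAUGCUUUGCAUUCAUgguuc
Mir450-1: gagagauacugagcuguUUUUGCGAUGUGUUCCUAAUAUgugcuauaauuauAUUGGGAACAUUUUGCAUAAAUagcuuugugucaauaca
They share a run of 25 bases that holds the whole miR-450a-5p strand. Reads that map to more than 1 place were not counted at any gene (34.0% and 33.1% of all reads in replicates 1 and 2), so the values of Mir450-1 and Mir450-2 are lower limits. Mir450b shared 19 bases with Mir450-1, and the hairpins of Mir322, Mir503 and Mir542 shared at most 12 bases with any other. No other hairpin of the table held either mature strand of Mir322, Mir503, Mir351 or Mir542.

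The cluster spans chrX:53047997-53054349 of GRCm38 (mm10), which is 6353 bases. No other gene overlapped any member in M21. Mir322 lies at chrX:53054255-53054349, with Mir503 200 bases downstream at chrX:53053984-53054054 and Mir351 630 bases further at chrX:53053255-53053353. A gap of 3767 bases, in which the noncoding RNA gene Gm28730 is annotated, separates Mir351 from Mir542 at chrX:53049403-53049487. The miR-450 genes follow after 1035 bases and stand 54 and 75 bases apart, Mir450-2 at chrX:53048299-53048367, Mir450-1 at chrX:53048154-53048244 and Mir450b at chrX:53047997-53048078. The noncoding transcript C430049B03Rik ends 696 bases upstream of Mir322 on the same strand.

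Replicate 1 had 6395680 reads and replicate 2 had 8068090, and 2353946 and 3132763 of these fell in microRNA genes in the sense direction. Levels are in CPM, counts scaled by depth to these sense totals. Errors after ± are SDs over both libraries (n = 2), and intervals are 95% exact intervals that cover counting error only. The intervals and the p-values treat every read as independent, so PCR copies would make the intervals too narrow and the p-values too small. The liver cell microRNAs Mir122 (97348 and 110371 CPM) and Mir192 (4467 and 4642 CPM), the markers of the labelled tissue, were high in both libraries. Each read was taken to count 1 mature strand of nearly the same length (21 to 24 bases in the cluster), so CPM was compared between genes without scaling by hairpin length. Whether the reads were whole mature strands was not examined.

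Together the 7 genes held 2.36% ± 0.102 of all counts, 24291 CPM in replicate 1 and 22852 CPM in replicate 2. Mir322 reached 20105 CPM in the first library and 18840 CPM in the second, or 19473 ± 894.8 CPM. Among reads that map to 1 place, that put it at rank 14 and rank 15 of the 1973 genes. Genes with identical copies lose reads that map to several places, so its true rank may be lower. In whole tissue, a difference in the number of cells that make a microRNA cannot be told apart from a difference in the amount per cell.

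Mir322 dominated the cluster, with shares that are upper limits because reads of Mir450-1 and Mir450-2 are partly uncounted. It took 82.8% of the cluster's 57180 counts in replicate 1, with a Clopper-Pearson interval of 82.5 to 83.1, and 82.4% of 71590 in replicate 2 (82.2 to 82.7). The 6 other genes together reached 4186 and 4012 CPM. Mir322 and Mir503, the pair with the miR-15/16-like seed, made up 85.6% of the cluster on average.

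The second gene in the order of transcription, Mir503, had 727.3 CPM in the first library and 678.6 CPM in the second. Although it lies only 200 bases from Mir322, its counts were 27.6-fold lower in replicate 1 (interval 26.3 to 29.0) and 27.8-fold lower in replicate 2 (26.6 to 29.0). The level therefore did not fall steadily along the cluster, because Mir351, the third gene, stood above Mir503. Mir351 had 2503 and 2353 CPM, which is 10.3% of the cluster in each library. It was 3.44-fold above Mir503 in replicate 1 (3.26 to 3.63) and 3.47-fold above it in replicate 2 (3.30 to 3.64).

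Beyond the long gap, Mir542 had 643.6 CPM in the first library and 677.0 CPM in the second. Its level was close to that of Mir503. The replicate values did not overlap, with 677.0 CPM as the highest of Mir542 and 678.6 CPM as the lowest of Mir503. Their means differed by 42.6 CPM, less than their SDs of 34.4 and 23.6 CPM added together, and the ratio of Mir503 to Mir542 was 1.13 (1.05 to 1.21) in replicate 1 but 1.00 (0.943 to 1.07) in replicate 2.

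By the reads that could be counted, the miR-450 genes were the lowest. Mir450b, the last gene of the cluster, had 261.3 and 249.3 CPM. Mir450-1 had 27.6 and 33.5 CPM from 65 and 105 counts, and Mir450-2 had 23.4 and 20.7 CPM from 55 and 65 counts. Mir450b thus stood 9.46-fold above Mir450-1 in replicate 1 (7.32 to 12.4) and 7.44-fold in replicate 2 (6.06 to 9.21), but part of the reads of Mir450-1 and Mir450-2 could not be counted. In replicate 1 Mir450-1 and Mir450-2 did not differ beyond counting error, with a ratio of 1.18 (0.813 to 1.72), and in replicate 2 the ratio was 1.62 (1.17 to 2.24).

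**Figure D1:**
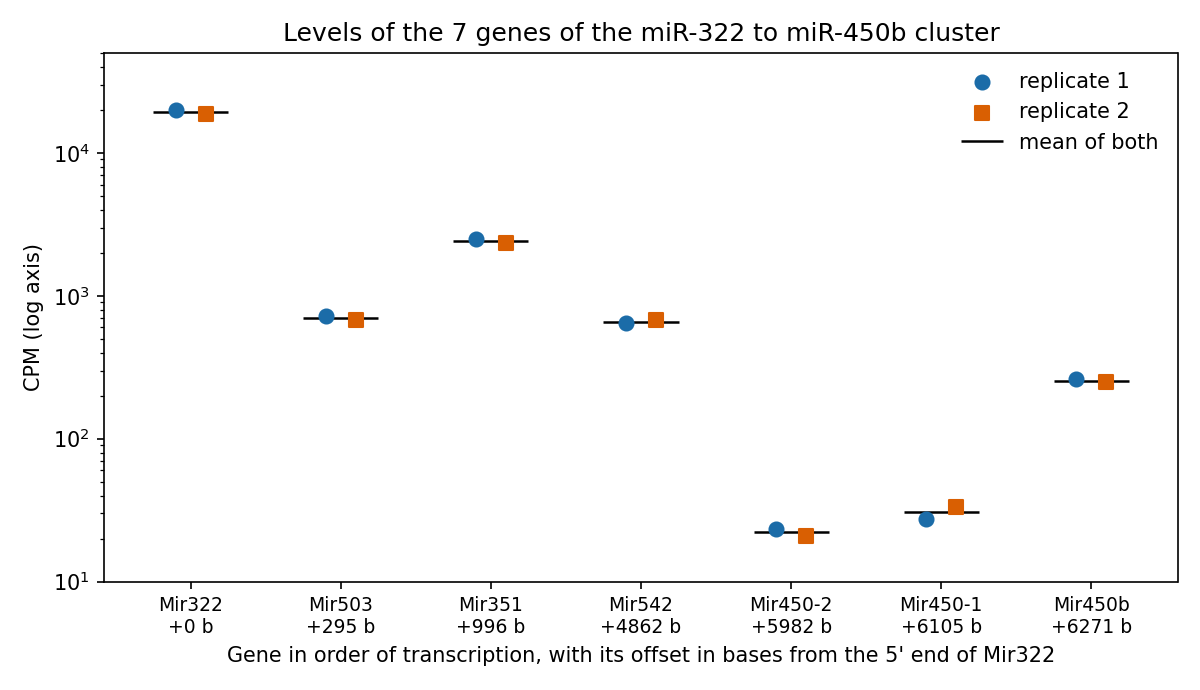
Level of each gene in CPM on a log axis, in order of transcription with the offset of its 5′ end from that of Mir322. Points are the 2 libraries and lines their mean: Mir322 stands at 20105 and 18840 CPM and Mir351 is the next highest. Mir450-2 and Mir450-1, which are lower limits, are the lowest as counted.

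Ordered by mean level, the genes were Mir322, Mir351, Mir503, Mir542, Mir450b, Mir450-1 and Mir450-2. The values of Mir450-1 and Mir450-2 are lower limits, so their place in this order is uncertain. Of neighbours in this order, Mir503 and Mir542 differed by less than their SDs added together, and Mir450-1 and Mir450-2 were separated by 8.51 CPM against SDs of 4.17 and 1.85 CPM. The other neighbours were separated by far more than their SDs, although the gap between Mir450b and Mir450-1 rests on a lower limit. None of the 7 genes had an opposite-strand count in either library. A count of 0 allows up to 3 counts, or 0.00525% and 0.00419% of the cluster's counts. This is common here, since 88.0% of the 332 genes that reached 10 counts in both libraries had none.

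The ratio between the livers was close to 1 for every well-counted member. Mir322 was 1.07-fold higher in replicate 1 (1.05 to 1.08), a small difference that passed a two-sided exact binomial test of its counts with Benjamini-Hochberg adjustment over all 332 genes tested (adjusted p = 7.3e-25). Mir351 was 1.06-fold higher in replicate 1 (1.03 to 1.10) and also passed (adjusted p = 0.0015 by the same exact test). Mir503 had nearly the same ratio, 1.07-fold higher in replicate 1 (1.01 to 1.14), with fewer counts and an adjusted p of 0.075 by the exact test. It passed when the libraries were scaled by TMM (adjusted p = 0.024), by DESeq2 size factors (0.027) or with counts regardless of strand (0.046), each with the exact test. The range of its adjusted p over all alternatives was 0.024 to 0.17.

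The other 4 members did not pass. Mir542 was 1.05-fold higher in replicate 2 (0.984 to 1.12), and Mir450b was 1.05-fold higher in replicate 1 (0.941 to 1.17). For Mir450-1 the ratio was 1.21-fold toward replicate 2 (0.882 to 1.68), and for Mir450-2 it was 1.13-fold toward replicate 1 (0.772 to 1.64). At this depth a difference of that size was not detectable for the miR-450a genes.

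In all, 2 of the 7 members differed, both higher in replicate 1, and 5 of the 7 had the higher level there. Among all 332 genes tested, 136 differed (41.0%). Of the genes tested, 59 were called in the direction of replicate 1 (17.8%) and 77 in that of replicate 2 (23.2%). The members had a median log2 ratio (replicate 2 over 1) of -0.09, and all genes tested had one of 0.03. Without sign, the median was 0.09 for the members and 0.16 for all genes. The summed counts of the red cell microRNAs Mir451a and Mir144 were also higher in replicate 1 (49613 against 39515 CPM, 2 of 2 listed genes with counts). Several markers of other cells had log2 ratios near the -0.09 of Mir322: the vessel gene Mir126a (61517 and 57654 CPM) had -0.09, the white cell gene Mir223 (10498 and 9885 CPM) had -0.09 and the connective tissue gene Mir143 (16834 and 15638 CPM) had -0.11. The white cell list had 2 genes, of which Mir223 alone had a row. The 5 connective tissue genes with a row, none at 0 in both libraries, summed to 17963 and 17088 CPM. Of these, Mir143 and Mir199a-2 (15.3 and 14.4 CPM) were higher in replicate 1. Mir214 (873.0 and 1176 CPM, log2 ratio 0.43), Mir145a (241.3 and 260.2 CPM) and Mir199a-1 (0 and 0.638 CPM) were higher in replicate 2. The 4 muscle genes with a row summed to 31.0 and 14.0 CPM, all from Mir206 with the other 3 at 0. The 5 neuron genes with a row summed to 16.1 and 0.958 CPM, with 3 at 0. Listed genes with numbered copies, such as Mir124a-1 and Mir124a-2 or Mir199a-1 and Mir199a-2, can lose reads that map to several places. Their values are therefore lower limits, and a 0 does not show that the microRNA was absent. The 5 liver cell microRNAs summed to 105667 and 119139 CPM, higher in replicate 2. The part of cell makeup in the ratios of the cluster was not tested.

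**Figure D2:**
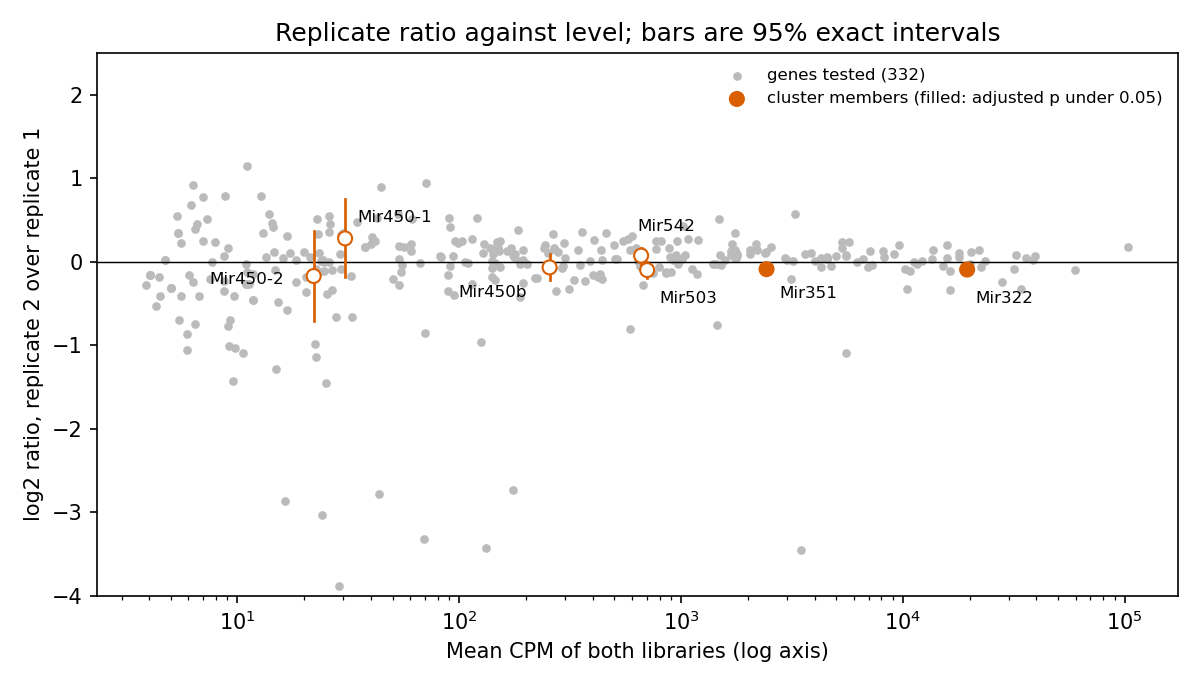
Log2 ratio of replicate 2 over replicate 1 against mean CPM (log axis) for the 332 genes tested in grey and the 7 members in orange, with 95% exact intervals as bars. Mir322 and Mir351, filled, lie just below 0, and the wide bars of Mir450-1 and Mir450-2 cross it.

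Seen within each library, the proportions of the first 3 genes hardly moved. The ratio of Mir322 to Mir351 was 8.03 (7.82 to 8.26) in replicate 1 and 8.01 (7.82 to 8.20) in replicate 2. The share of Mir503 in the cluster was 2.99% (2.86 to 3.14) and 2.97% (2.85 to 3.10). Mir542 stood apart from these, with 2.65% of the cluster in replicate 1 (2.52 to 2.78) and 2.96% in replicate 2 (2.84 to 3.09), so its intervals did not overlap. Mir322 was 31.2-fold above Mir542 in replicate 1 (29.7 to 32.9) and 27.8-fold above it in replicate 2 (26.6 to 29.1). Mir450b held 1.08% (0.993 to 1.16) and 1.09% (1.02 to 1.17).

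Among reads that map to 1 place, Mir322 was the highest of the genes listed for bases 2 to 7 of the miR-15/16 seed. Of 12 listed genes, 10 had a row in the tables, and Mir497 and Mir497a were not analysed here. Mir6353 and Mir6419, which carry the seed of miR-322-5p, were not listed and had no same-strand counts in either library. Mir322 took 38.7% of this family's counts in replicate 1 and 37.7% in replicate 2. Counts are per gene and do not separate the 5p from the 3p strand, while the family seed of Mir322 lies on its 5p strand. These are therefore shares of gene counts, not of strands with the seed. Mir15a on chromosome 14 came next with 15426 and 14847 CPM, below Mir322 in both libraries. Then came Mir16-1 (7337 and 7134 CPM), Mir15b (6498 and 6649 CPM) and Mir16-2 (1525 and 1488 CPM). Mir503 ranked after these and above Mir195a (297.8 and 286.3 CPM). Mir16-1 and Mir16-2 make the same mature strand, so their values are lower limits and the share of Mir322 is an upper one. Their place in this order is therefore uncertain. Mir497b, a listed gene for which the RefSeq table gave no strand with the family seed, had 0 and 2 counts. Mir195b and Mir6342 had none in either library, which allows up to 1.27 CPM in replicate 1 and 0.958 CPM in replicate 2. Of the 5 family genes outside the cluster that were tested, 2, Mir15a and Mir16-1, differed by the exact test, both higher in replicate 1, against 41.0% of all genes. Their median log2 ratio was -0.04.

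The list for the miR-125 seed had 4 genes and left out Mir6367 and Mir6394, which share this seed. Among reads that map to 1 place, Mir351 was likewise the highest of these 4 genes. Its part of that family's gene counts, with both strands pooled, was 67.1% in replicate 1 (66.1 to 68.1) and 66.1% in replicate 2 (65.3 to 67.0). Mir125a followed with 917.6 and 960.8 CPM. Mir125b-2 (215.0 and 159.9 CPM) and Mir125b-1 (93.5 and 84.0 CPM) make the same 5p strand, so they are lower limits and the share of Mir351 is an upper one. The place of Mir351 and Mir125a above them is therefore uncertain. Of these 3 genes 1, Mir125b-2, differed between the libraries, against 41.0% of all genes tested. It was higher in replicate 1 (log2 ratio -0.43, adjusted p = 1.5e-05 by the exact test). Their median log2 ratio was -0.16.

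**Figure D3:**
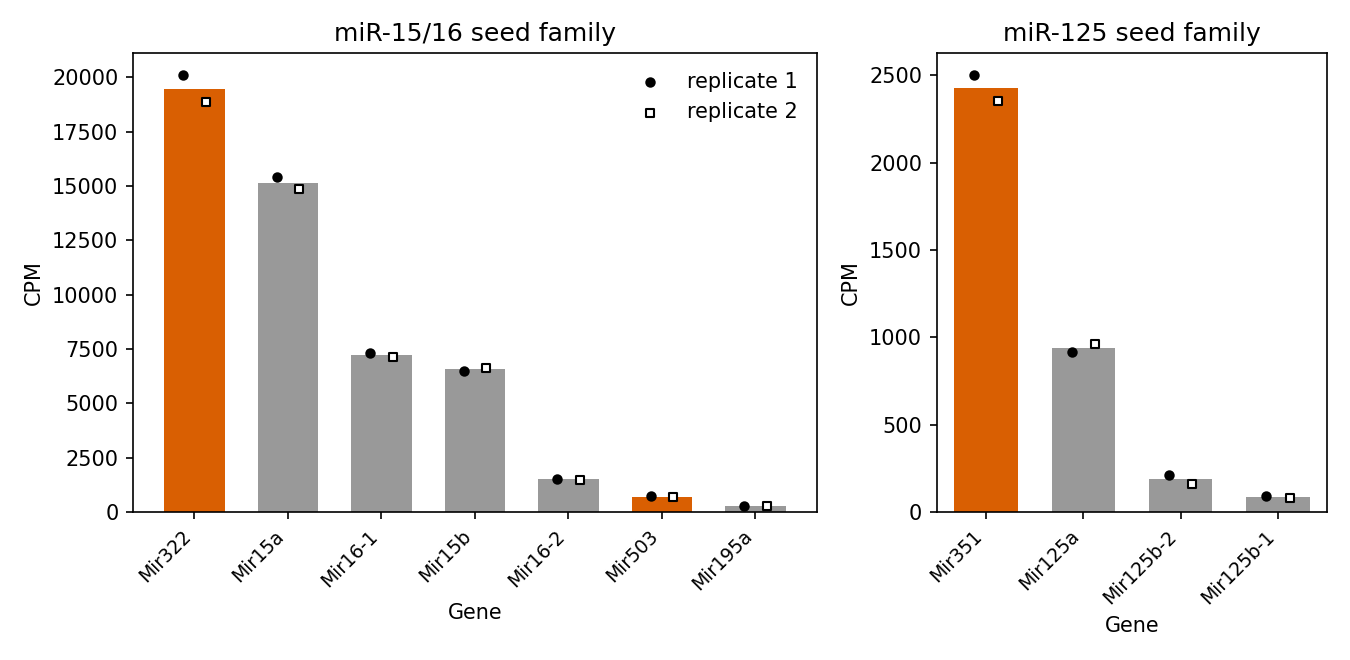
Mean CPM (bars, from 0) and the value in each library (points) for genes of both seed families with at least 10 counts, with cluster members in orange. Mir322 is the tallest bar of the miR-15/16 family and Mir351 that of the miR-125 family, while Mir503 lies near the bottom of its family.

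By mean level among reads that map to 1 place, Mir322 stood at rank 15 of all genes. It lay between Mir22 (20086 ± 238.6 CPM) and Mir20a (17940 ± 890.1 CPM). Genes with identical copies are undercounted in this ranking. Its replicate values overlapped those of Mir22 and of Mir127 (20218 ± 1105 CPM), the next above. They did not overlap those of Mir20a or of Mir130a (17808 ± 452.3 CPM), the next below, although the means of Mir322 and Mir20a differed by less than their SDs added together.

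The dominance of Mir322 was set beside that of the leading gene in other clusters. Clusters were runs of microRNA genes on the same strand at most 10 kb apart, and 14 of them had at least 3 genes past the minimum of 10 counts. The leading gene of these took between 28.4% and 94.7% of the counts, with a median of 50.6%. Mir322 took 82.6% ± 0.230 and Mir341, which leads a cluster of 4 genes on chromosome 12, took 82.1% ± 1.18. These shares were not apart, since Mir341 had the higher one in replicate 1 (83.0% against 82.8%) and Mir322 in replicate 2 (82.4% against 81.3%). The highest share was that of Mir23a (94.7% ± 0.336, of 3 genes), and the lowest were those of Mir411 (29.0% ± 0.273, of 34 genes) and Mir92-2 (28.4% ± 3.19, of 6 genes). The leading gene was the first in the order of transcription in 5 of the 14 clusters, Mir322 among them. By summed level the cluster was the fifth of the 14. These shares are a description with no test, and clusters whose genes have copies elsewhere are counted incompletely.

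**Figure D4:**
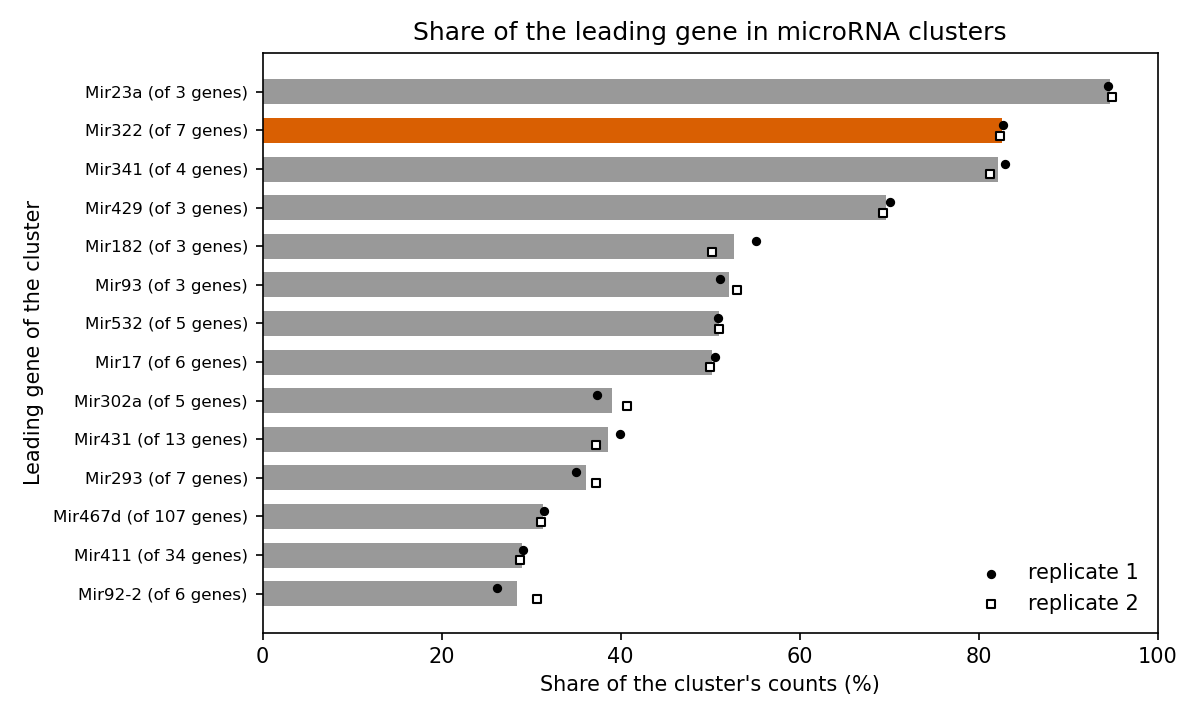
Share of each cluster's counts taken by its leading gene (bars, mean; points, each library) in 14 clusters, with the number of genes in brackets. Mir322, in orange, lies below Mir23a and level with Mir341, whose points fall on either side of it.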

How the data were processed

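The authors deposited, for each of 2 liver libraries, a table of raw read counts per microRNA gene, not normalized, with columns for reads regardless of strand, on the gene's strand and on the opposite strand. Per the labels the libraries hold RNAs under 30 nucleotides and the assembly is mm10, and the notes beside the deposited files give M4 as the annotation and a separate alignment per table. Which aligner and counter made them is not given in the sources used here. Totals exclude the rows without a gene, which hold unmapped reads (18.6% and 17.7%), reads mapping to several places (34.0% and 33.1%) and same-strand reads in no gene (10.6% and 10.4%).

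Of 1973 Ensembl IDs, 1894 matched GENCODE M21, and all 7 members did. Same-strand counts were scaled to CPM. Genes reaching 10 counts in both libraries entered an exact binomial test, two-sided and conditional on the totals, with the smaller tail doubled, Benjamini-Hochberg adjustment over all 332 and a threshold of 0.05 (scipy 1.17.1, Python 3.11.15). Log2 ratios carry 0.5 added to each count, and folds carry none. Shares have 95% Clopper-Pearson intervals. Since there is 1 group, edgeR 4.0.16 and DESeq2 1.42.0 gave only the alternative scalings. Named genes were all members, the marker lists, genes of both seed families, the 2 genes above and below Mir322 in level, Mir122, Mir192, and the leaders of the clusters with the 2 highest and 2 lowest leading shares. Requiring 3 genes past the count minimum in a cluster and naming Mir341 were chosen after values were seen. Members and lists were chosen with earlier results of these data known.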

Additional observations from a re-analysis of the deposited data

How the results depend on the processing

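The share of the cluster in all counts, 2.36%, was 2.12% with counts regardless of strand, 2.63% with the highest gene, Mir122, left out of the totals, and 0.891% of all reads, a total added after seeing the data. It ran from 2.29% to 2.43% when either replicate was left out. The share of Mir322 within the cluster, 82.6%, was 81.7% with counts divided by annotated gene length and 82.4% to 82.8% when either replicate was left out. Without Mir450-1 and Mir450-2 it was 82.8%, a setting added after seeing the data that can only raise the share and does not bound their uncounted reads. The number of members that differed was 2 or 3 under the 8 other settings of the test, and the number of all genes that differed was between 129 and 147. Calls higher in replicate 1 made up 43.4% of all calls, against 50.4% by TMM or DESeq2 size factors, 37.2% with Mir122 left out of the totals and 38.0% with at least 100 counts. No member's ratio changed direction under an alternative, and Mir503 alone crossed the threshold, as given with its ratio. The rule of adding up all outcomes no more likely than the one seen, also added after seeing the data, called 139 genes. With a minimum of 100 counts, 5 members could be tested. Leaving out a replicate leaves 1 library, which gives no ratio. No paired analysis was possible because there is 1 group. Depth limits the ratios of Mir450-1 and Mir450-2, which rest on 55 to 105 counts.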

Other observations

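The cluster held 43.0% of the counts of all microRNA genes of chromosome X in replicate 1 and 40.9% in replicate 2. The 113 other microRNA genes of the chromosome summed to 32225 and 33045 CPM, of which 29 had at least 10 counts in each library. The highest were Mir223, a microRNA of granulocytes and monocytes (10498 and 9885 CPM), and Mir652 (8839 and 9419 CPM). By the exact test 9 of the 29 differed (31.0%, against 41.0% of all genes), 1 toward replicate 1 and 8 toward replicate 2, with a median log2 ratio of 0.04. The 2 members of the cluster that differed were both higher in replicate 1. The difference between these sets was not tested.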
